A study of Mus musculus with 4 samples.

Results

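The 10 genes described here carry out antigen presentation on molecules of the major histocompatibility complex (MHC) and were chosen by name: the class I heavy chains H2-K1 and H2-D1, the class I light chain B2m, the peptide-loading genes Tap1, Tap2 and Tapbp, the class II chains H2-Aa, H2-Ab1 and H2-Eb1, and Cd74, the class II invariant chain. All 10 were found among the 17187 genes measured. They were measured by RNA sequencing in 4 libraries of group 2 innate lymphoid cells (ILC2s), lymphocytes without an antigen receptor that secrete type 2 cytokines. The cells came by sorting from BALB/c lungs and were kept in culture for 18 hours. One group of 2 libraries was given an isotype control antibody. The other group of 2 was given an antibody against CD226, a costimulatory receptor, at 5 µg/mL; whether that dose also applies to the isotype antibody is not clear from the wording. No gene deletion or transgene is given for either group. In the series' design text it is the mice that were treated, and the controls are named PBS in a column of the deposited table; the sample labels were followed. Nothing in the labels ties the 2 libraries of a group to separate mice or cultures. The p-values therefore rest on library-to-library spread alone, and that spread may be technical.

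MHC class I molecules display peptides made inside the cell. The heavy chain pairs with the B2m light chain in the endoplasmic reticulum, where the Tap1 and Tap2 transporter brings in peptides cut by the proteasome and tapasin, encoded by Tapbp, bridges the transporter and the waiting heavy chain. MHC class II molecules are pairs of an alpha and a beta chain that bind peptides from endocytosed material after the invariant chain has been degraded, and they are best known from dendritic cells, macrophages and B cells. Nearly every nucleated cell carries class I, whose transcription is driven by NLRC5, and class II is switched on by the related factor CIITA. Mouse ILC2s have been described to carry class II on their surface and to exchange signals with T cells.

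Of the 10 genes, 8 lie on chromosome 17 of GRCm38, the assembly called mm10, in the H2 complex. H2-K1 lies at chr17:33996017-34000347 on the minus strand and H2-D1 at chr17:35262730-35267499 on the plus strand. Tapbp (chr17:33915899-33929292), Tap1 (chr17:34187553-34197225) and Tap2 (chr17:34203527-34216321) are on the plus strand between them or beside H2-K1. The class II genes follow, with H2-Ab1 at chr17:34257689-34269419 and H2-Eb1 at chr17:34305867-34316674 on the plus strand and H2-Aa at chr17:34282744-34287823 on the minus strand. B2m lies outside the complex, at chr2:122147686-122153083 on the plus strand, as does Cd74. All 10 are annotated as protein-coding genes.

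RefSeq promoter windows on GRCm38.p6, from 250 bases before to 50 bases after an annotated start, were found for 7 of the 10 genes. The reference is of the C57BL/6J strain, not of BALB/c, and MHC sequence differs between strains. Shown 5′ to 3′ are the windows of H2-K1 and H2-D1, the heavy chains, which kept a nearly fixed ratio in the 4 libraries; of Tap1, which shares its start region with an immunoproteasome gene; and of H2-Aa, the class II chain with the fewest reads. Their positions are chr17:34000298-34000597 on the minus strand (H2-K1), chr17:35262844-35263143 on the plus strand (H2-D1), chr17:34187306-34187605 on the plus strand (Tap1) and chr17:34287774-34288073 on the minus strand (H2-Aa). Each window crosses the start site into the first exon. Capitals mark matches, on either strand, to 4 short motifs: the core of the interferon response element bound by IRF factors (GAANNGAAA), the kappa B core of the class I enhancer A (GGGATTCCC), the element shared by the X2 box and the cyclic AMP response element (TGACG) and the Y box (CCAAT).
H2-K1: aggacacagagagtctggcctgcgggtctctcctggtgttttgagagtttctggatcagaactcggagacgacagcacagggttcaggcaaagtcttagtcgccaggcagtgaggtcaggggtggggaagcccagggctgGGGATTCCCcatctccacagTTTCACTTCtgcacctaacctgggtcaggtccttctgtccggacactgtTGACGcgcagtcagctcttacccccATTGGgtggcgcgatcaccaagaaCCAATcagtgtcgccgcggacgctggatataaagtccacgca
H2-D1: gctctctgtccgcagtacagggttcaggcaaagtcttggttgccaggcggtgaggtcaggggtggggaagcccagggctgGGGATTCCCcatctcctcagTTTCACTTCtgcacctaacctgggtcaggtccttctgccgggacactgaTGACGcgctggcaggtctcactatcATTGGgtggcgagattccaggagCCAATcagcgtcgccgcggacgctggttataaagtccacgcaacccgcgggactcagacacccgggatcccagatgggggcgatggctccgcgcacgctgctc
Tap1: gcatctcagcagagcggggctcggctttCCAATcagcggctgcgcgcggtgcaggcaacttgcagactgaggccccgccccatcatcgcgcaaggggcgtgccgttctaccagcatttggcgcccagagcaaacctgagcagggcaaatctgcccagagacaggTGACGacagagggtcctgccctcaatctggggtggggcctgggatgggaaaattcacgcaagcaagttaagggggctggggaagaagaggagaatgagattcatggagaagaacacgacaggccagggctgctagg
H2-Aa: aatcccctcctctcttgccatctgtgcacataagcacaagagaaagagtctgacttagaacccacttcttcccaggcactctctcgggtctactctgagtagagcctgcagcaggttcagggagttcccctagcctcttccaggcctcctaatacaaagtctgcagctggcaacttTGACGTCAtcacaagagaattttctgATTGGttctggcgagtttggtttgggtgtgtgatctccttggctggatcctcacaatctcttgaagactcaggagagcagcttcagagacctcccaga

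In the H2-K1 window shown, the kappa B core lies from position -110 to -102 before the start. The IRF core lies from -90 to -82 and the TGACG element from -41 to -37. Counted from another annotated H2-K1 start, these 3 motifs lie at -124 to -116, -104 to -96 and -55 to -51. H2-D1 holds the same 3 motifs in the same order, at -170 to -162, -150 to -142 and -101 to -97, followed by a Y box on each strand, as in H2-K1. The H2-K1 and H2-D1 windows shown were identical at 88.3% of 239 aligned bases. In the H2-Aa window 2 TGACG matches on opposite strands overlap from -74 to -67, and a Y box follows at -48 to -44. Tap1 holds 1 TGACG at -86 to -82 and 1 Y box at -222 to -218. Its window overlaps that of Psmb9, a catalytic immunoproteasome subunit transcribed from the other strand, over 275 bases.

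Among the 7 genes whose windows were used, the kappa B core and the IRF core were each found in 2, H2-K1 and H2-D1. Over all 32851 promoter windows, 0.353% held the kappa B core and 7.52% the IRF core. The TGACG element was found in 5 of the 7 (B2m, H2-Aa, H2-D1, H2-K1 and Tap1) and in 20.8% of all windows. The Y box was found in 7 of 7 and in 37.4% of all windows. A match is a description of the letters, and no binding was measured.

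**Figure D1:**
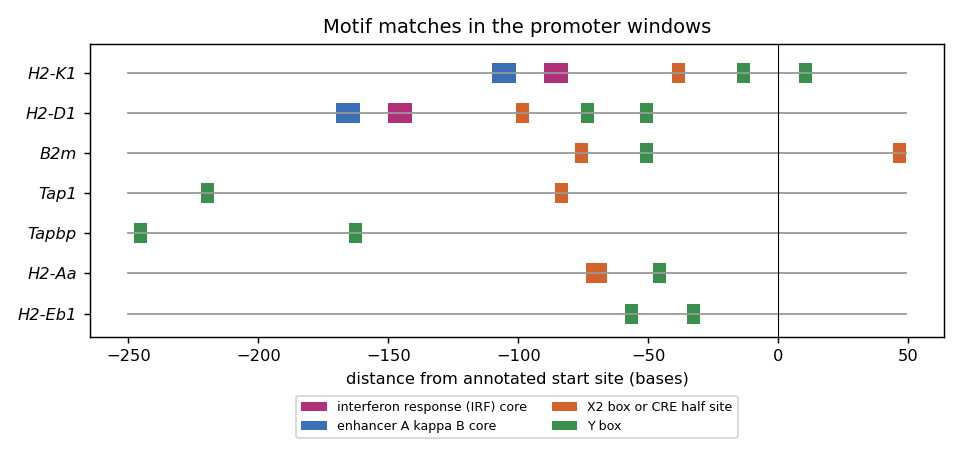
Matches to 4 motifs on either strand in the RefSeq promoter windows of 7 presentation genes; the x axis is the distance from the annotated start site in bases, each row is 1 gene, and coloured blocks are matches. H2-K1 and H2-D1 show the same order of kappa B core, IRF core, TGACG element and 2 Y boxes, shifted along the window. For H2-K1, which has more than 1 annotated start, 1 window is drawn.

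Library depth was similar in 3 of the 4 libraries. The estimated number of reads was between 12433713 and 17847321, isotype replicate 2 being the deepest, and 16602 to 16847 genes had a value above 0. All 12 ILC2 markers were above 0 in every library, with sums of 191963 and 192401 normalised reads in isotype and 182080 and 178701 in anti-CD226. The cytokine Il5 had the largest part of these sums. Without overlap, 2 of the 12, Il5 and Il13, were lower in anti-CD226, 16.7% against 13.0% of all genes tested. Another 4, Gata3, Il7r, Rora and Icos, were higher without overlap, 33.3% against 13.8% of all genes tested. Of the 12, 0 had an adjusted or unadjusted p below 0.05 (limma). Gata3, Il7r and Icos were named after their values were seen. Values below are normalised read counts, that is reads divided by 1 factor per library. The value after ± a group's mean is the SD of its 2 libraries (n = 2), their spread and not the error of the mean. Over 12911 genes, a library's deviation from the mean of all 4 correlated with transcript length at a Spearman rho of 0.54 in anti-CD226 replicate 2, -0.37 in anti-CD226 replicate 1, -0.49 in isotype replicate 2 and -0.00081 in isotype replicate 1. Transcripts of long genes thus stood high in anti-CD226 replicate 2, and this value is given again where it touches a result.

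Every library carried the class I machinery at high level and the class II chains at low level. Per kilobase of the main transcript, as the mean and SD over all 4 libraries, B2m had 24959 ± 3094 normalised reads, which placed it at rank 13 of the 16979 genes with a known length. H2-D1 followed with 18591 ± 923 per kilobase (rank 24) and H2-K1 with 4762 ± 261 (rank 207). The light chain and the heavy chains are thus among the most abundant transcripts per length of these cultured ILC2s. The loading genes came next, with Tapbp at 1149 ± 132 per kilobase, Tap2 at 977 ± 42.2 and Tap1 at 648 ± 48.1. H2-Ab1, the class II beta chain, had 183 ± 23 per kilobase and Cd74 74.2 ± 21.2. The lowest were H2-Eb1 with 14.8 ± 4.91 and H2-Aa with 13.2 ± 5.10 per kilobase. In this order neighbours overlapped in their ranges over the libraries at 2 places, Tapbp with Tap2 and H2-Eb1 with H2-Aa, and all other neighbours were apart in all 4 libraries.

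Such levels depend on how reads of similar genes were assigned, which is not given in the sources used here. H2-K1 and H2-D1 are 90.7% identical over 1581 aligned bases of their main transcripts, and 14.3% of the 50-base stretches of H2-D1 and 8.79% of those of H2-K1 occur in other genes; the genes that share most of them are class I genes. BALB/c carries another MHC haplotype than the reference strain, and its effect on the levels of class I and class II chains was not tested. Whether strand was used in counting is not given, so reads from the stretches where exons of Tap1 and Psmb9, of Tap2 and Gm15821 or Gm20496, and of Tapbp and Gm19412 overlap on opposite strands cannot be told apart. Exons of Tapbp also overlap Zbtb22 on the same strand. Of the 50-base stretches, 6.47% in Tap1, 12.6% in Tap2 and 21% in Tapbp occur in another gene. For B2m, H2-Aa, H2-Ab1, H2-Eb1 and Cd74, 0% of the 50-base stretches were shared with another gene.

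**Figure D2:**
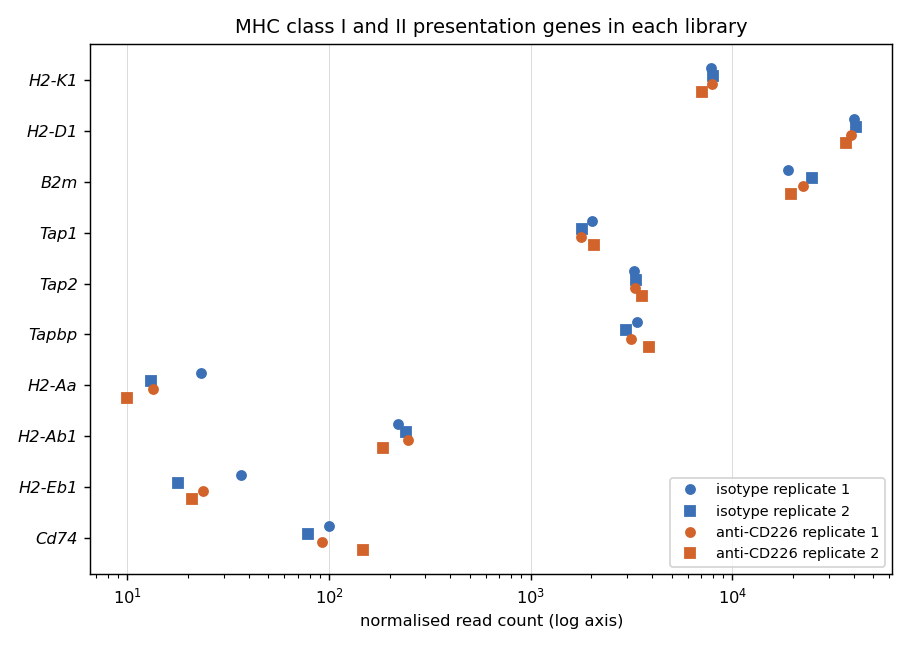
Normalised read count (x axis, log scale) of the 10 presentation genes (y axis) in each library; blue is isotype, orange anti-CD226, circles replicate 1 and squares replicate 2. The class I chains and loading genes lie far to the right of the class II chains and Cd74 in all 4 libraries, and blue and orange points overlap for every gene but H2-D1.

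The comparison between the groups asks whether these transcripts differ in ILC2s given anti-CD226. None of the 10 genes passed the test for a difference between the groups. By a two-sided limma test on log2(value + 1), whose variance prior follows the mean and whose p-values were adjusted by Benjamini-Hochberg over all genes tested, 0 of 10 had an adjusted p below 0.05, and their adjusted p-values lay between 0.982 and 0.997. The same fit called 0% of the 13010 genes with a mean of 10 or more. At an unadjusted p below 0.05 it found 0 of the 10 and 308 of all genes, 2.37%, and limma without the trend found 461 of all genes unadjusted and 0 adjusted. Of the 10, 4 had a higher and 6 a lower mean in anti-CD226, with a median log2 fold change of -0.06 against 0.0066 over all genes tested. Groups without overlap were seen for 0 of the 10 with anti-CD226 higher, against 13.8% of all genes, and for 1 of the 10 with anti-CD226 lower, against 13.0% of all genes. That gene was H2-D1.

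H2-D1, a class I heavy chain that presents peptides to CD8 T cells, had 39974 and 41053 normalised reads in the isotype libraries and 38757 and 36532 in the anti-CD226 libraries. Both anti-CD226 libraries lay below both isotype libraries. The means were 40514 ± 763 and 37644 ± 1573, a log2 fold change of -0.11 (SE 0.16, 95% interval -0.47 to 0.26, limma, adjusted p = 0.982). The interval corresponds to 0.722 to 1.20 times the isotype level.

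H2-K1, the other heavy chain, had 7805 and 8029 in isotype and 7914 and 7091 in anti-CD226 libraries. Anti-CD226 replicate 1 lay between the isotype libraries and replicate 2 below both. The log2 fold change was -0.08 (SE 0.16, 95% interval -0.45 to 0.29, limma, adjusted p = 0.982), or 0.734 to 1.22 times the isotype level. Within each library the per-kilobase level of H2-D1 was 3.77 to 3.97 times that of H2-K1. The ratio of H2-D1 to H2-K1, as counted here, thus moved little from library to library.

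B2m, the light chain that every class I molecule needs for the cell surface, had 18989 and 24728 in isotype and 22513 and 19628 in anti-CD226 libraries. Both anti-CD226 values fell between the isotype values. The log2 fold change was -0.04 (SE 0.19, 95% interval -0.48 to 0.39, limma, adjusted p = 0.989). B2m per kilobase was 0.926 to 1.17 times the sum of H2-K1 and H2-D1. The 3 chains summed to 0.486% and 0.535% of a library's signal for isotype and to 0.497% and 0.460% for anti-CD226.

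Tap1, a subunit of the peptide transporter, had 2020 and 1795 in isotype and 1785 and 2049 in anti-CD226 libraries. The group means, 1908 ± 160 and 1917 ± 187, lay within each other's SD. Tap2, the other subunit, had 3269 and 3315 in isotype and 3285 and 3578 in anti-CD226 libraries, with anti-CD226 replicate 2 above the other 3. Tapbp, which encodes tapasin, had 3370 and 2966 in isotype and 3131 and 3848 in anti-CD226 libraries, again with replicate 2 the highest.

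The log2 fold changes were 0.01 for Tap1 (SE 0.17, 95% interval -0.39 to 0.40, limma, adjusted p = 0.997), 0.06 for Tap2 (SE 0.16, 95% interval -0.31 to 0.42, adjusted p = 0.982) and 0.13 for Tapbp (SE 0.18, 95% interval -0.28 to 0.55, adjusted p = 0.982). With anti-CD226 replicate 2 left out they were -0.09, -0.0027 and -0.01, so all 3 turned sign without that library. These transcripts are 2898 to 3442 bases long, against a median of 2741 bases over all genes tested. In that library the deviation rose with length over 12911 genes (Spearman rho 0.54). The part of length in these 3 values was not tested. With each library's length trend removed, the log2 fold changes were -0.02 for Tap1, 0.0033 for Tap2 and 0.11 for Tapbp. The sign of Tap1 also turned without isotype replicate 2, to -0.08. Scaling turns it too, to -0.00080 with equal totals, -0.02 with the upper quartile and -0.02 with quantile normalisation. Per kilobase, Tap2 was 1.39 to 1.58 times Tap1 in the 4 libraries.

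**Figure D3:**
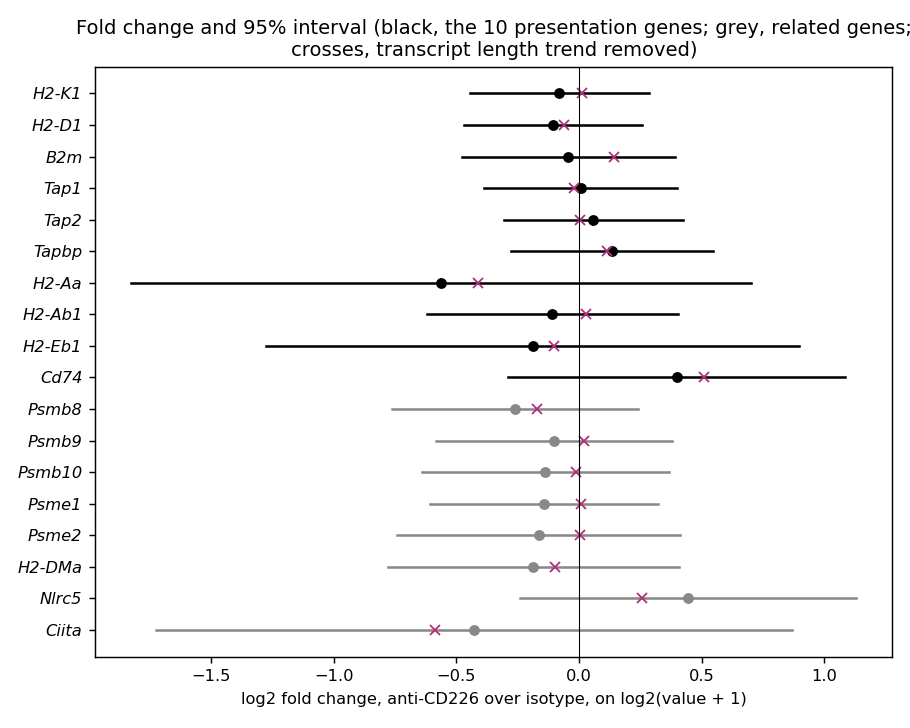
Log2 fold change of anti-CD226 over isotype on log2(value + 1) (x axis) with its 95% interval from limma, for the 10 presentation genes (black) and 8 related genes (grey); crosses are the fold changes after each library's transcript length trend is removed. All 18 intervals include 0, those of H2-K1, H2-D1 and Tap2 are the narrowest and that of H2-Aa the widest of the 10.

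H2-Ab1, the beta chain of the I-A class II molecule, was the class II chain with the most reads. It had 220 and 240 normalised reads in isotype and 246 and 184 in anti-CD226 libraries, from 199, 310, 239 and 167 estimated reads. Anti-CD226 replicate 1 was the highest of the 4 and replicate 2 the lowest. The log2 fold change was -0.11 (SE 0.22, 95% interval -0.62 to 0.40, limma, adjusted p = 0.982). It was 0.10 without anti-CD226 replicate 2 and 0.03 with the length trend removed.

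H2-Aa, the alpha chain of I-A, had 23.2 and 13.1 in isotype and 13.4 and 9.92 in anti-CD226 libraries. These values stand for 21, 17, 13 and 9 estimated reads, and isotype replicate 1 stood above the other 3. The log2 fold change was -0.56 (SE 0.55, 95% interval -1.83 to 0.70, limma, adjusted p = 0.982), an interval that runs from 0.282 to 1.63 times the isotype level at this depth. It was -0.17 without isotype replicate 1 and -0.95 without isotype replicate 2. H2-Ab1 per kilobase was 8.82 times H2-Aa in isotype replicate 1 and 17 to 17.3 times in the other 3 libraries. The chains of the same I-A molecule thus had unequal levels as counted here.

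H2-Eb1, the beta chain of the I-E molecule, had 36.5 and 17.8 in isotype and 23.7 and 20.9 in anti-CD226 libraries, from 33, 23, 23 and 19 estimated reads. Both anti-CD226 values lay between the isotype values. The log2 fold change was -0.19 (SE 0.47, 95% interval -1.28 to 0.90, limma, adjusted p = 0.982), and it was 0.31 without isotype replicate 1. H2-Ea, its alpha chain partner, had a mean under 10 and was not tested. It had 5.53 and 8.5 in isotype and 15.4 and 0 in anti-CD226 libraries; the 0 allows up to 3.31 normalised reads, the value of 3 reads there, for counting error only. The annotation lists H2-Ea as a polymorphic pseudogene, since the reference strain does not make I-E. BALB/c carries another MHC haplotype, so that entry need not hold for these cells.

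Cd74 lies at chr18:60803848-60812652 on the plus strand and encodes the invariant chain, which guards the class II groove. It had 99.5 and 78.8 in isotype and 92.7 and 148 in anti-CD226 libraries, from 90, 102, 90 and 134 estimated reads. Anti-CD226 replicate 2 stood above the other 3, and replicate 1 lay between the isotype libraries. The means were 89.1 ± 14.6 and 120 ± 38.9. The log2 fold change was 0.40 (SE 0.30, 95% interval -0.29 to 1.08, limma, adjusted p = 0.982), with the smallest unadjusted p of the 10, 0.217. It was 0.06 without anti-CD226 replicate 2 and 0.73 without anti-CD226 replicate 1.

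As a share of each library's signal, the 3 class II chains and Cd74 summed to 0.00276% and 0.00253% for isotype and to 0.00270% and 0.00264% for anti-CD226. Their sum varied less between libraries than the single genes did. H2-D1 per kilobase was 90.8 to 114 times H2-Ab1. In a bulk library, fewer cells carrying a transcript and less of it per cell cannot be told apart, and the same holds for a few presenting cells of another type among the ILC2s.

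Markers of other presenting cells were measured beside these genes. Of 19 macrophage and monocyte markers other than Ccr2, which ILC2s also carry, 11 were measured, and 8 (Mrc1, Marco, C1qa, C1qb, C1qc, Fcgr1, Ear2 and Krt79) were not analysed here. The 11 summed to 135 and 76.5 normalised reads in isotype and 324 and 1706 in anti-CD226 libraries, and 10, 8, 11 and 11 of them were above 0. With Ccr2, 8 were tested: 7 had a higher and 1 a lower mean in anti-CD226. By limma, 5 had an unadjusted p below 0.05, against 2.37% of all genes, and 0 an adjusted one. Among the 5, Lyz2, Plet1 and Chil3 had isotype means of 2.04, 6.30 and 9.95. These 3 passed the filter, a mean of 10 or more, only through the anti-CD226 group. That share is therefore partly set by the filter, and no conclusion is drawn from it. In anti-CD226 replicate 2 most of the sum came from Chil3, a chitinase-like macrophage protein, at 784 and Mmp12 at 678. Lyz2, the lysozyme of myeloid cells, had 3.32 and 0.773 in isotype and 8.24 and 51.8 in anti-CD226 libraries. Mmp12, the macrophage elastase, had 34.3 and 2.32 against 168 and 678. The general macrophage genes Csf1r and Adgre1 stayed at or below 2.62 and 7.73 in every library, while Mpeg1 had 0 in both isotype libraries and 4.12 and 16.5 in the anti-CD226 libraries. Cd68 had 35.4 and 38.6 in isotype and 55.6 and 88.2 in anti-CD226 libraries. Itgam, which was not tested, had 1.11 and 0 against 19.6 and 18.7. Apoe, the 1 with a lower mean, had 14.4 and 10.8 against 11.3 and 13.2. Csf1r, Adgre1, Mpeg1, Itgam, Apoe and Chil3 were picked out after their values were seen.

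Anti-CD226 replicate 2, with the highest macrophage sum, had the highest Cd74 and the lowest H2-Aa and H2-Ab1 of the 4 libraries. The part of macrophage RNA in the Cd74 value was not tested. Of 11 dendritic cell markers 6 were measured, with sums of 1703 and 1488 in isotype and 1471 and 1556 in anti-CD226 libraries. Most of that sum came from Ccr7 and from Xcr1, named after its values were seen; Zbtb46, the factor of classical dendritic cells, had 7.74 and 8.5 against 9.27 and 22. Itgax, the CD11c integrin of dendritic cells and lung macrophages, had 1.11 and 0 in isotype and 14.4 and 46.3 in anti-CD226 libraries. The 4 B cell markers measured had sums of 231 and 193 against 245 and 185, most of it Cd79b. Of 10 epithelial markers 9 were measured, with sums between 252 and 364; Sftpc, the surfactant gene of alveolar type 2 cells, named after its values were seen, had 22.4 in isotype replicate 2 and 0 in the other 3 libraries.

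**Figure D4:**
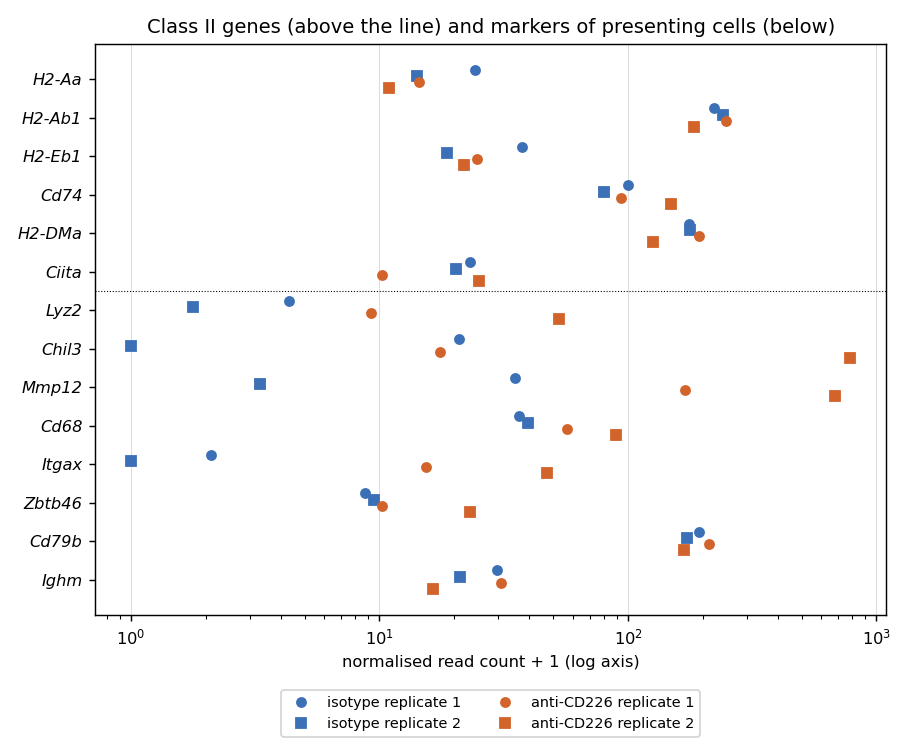
Normalised read count plus 1 (x axis, log scale) of class II genes (above the dotted line) and of markers of macrophages, dendritic cells and B cells (below it) in each library; blue is isotype, orange anti-CD226, circles replicate 1 and squares replicate 2. Lyz2, Mmp12, Chil3 and Itgax are highest in anti-CD226 replicate 2, where Cd74 is also highest and H2-Aa, H2-Ab1 and H2-DMa are lowest.

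The factors that switch these genes on were both measured. Nlrc5, the transactivator of class I genes, had 611 and 399 in isotype and 521 and 870 in anti-CD226 libraries, and anti-CD226 replicate 2 was the highest. The means were 505 ± 150 and 695 ± 247, with a log2 fold change of 0.45 (SE 0.30, 95% interval -0.24 to 1.13, limma, adjusted p = 0.982). Its transcript is 7578 bases long, and with the length trend removed the log2 fold change was 0.26. Anti-CD226 replicate 1 alone stood 0.08 above the isotype mean on the log2 scale and replicate 2 alone 0.81. Ciita, the transactivator of class II genes, had 22.1 and 19.3 in isotype and 9.27 and 24.2 in anti-CD226 libraries, with a log2 fold change of -0.43 (SE 0.56, 95% interval -1.73 to 0.87, adjusted p = 0.982). The values stand for 20, 25, 9 and 22 estimated reads. On the log2 scale its anti-CD226 replicate 1 stood at -1.08 and replicate 2 at 0.22 from the isotype mean, so the sign rests on replicate 1.

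Of 22 regulators of MHC transcription, all tested, 17 had a higher and 5 a lower mean in anti-CD226, and 0 had an adjusted p below 0.05 (limma; 0 also at an unadjusted p below 0.05). The median log2 fold change was 0.11, and 0.09 with the length trend removed, against 0.0066 over all genes tested. In 1 of the 22, Ifngr1, named after its values were seen, the groups did not overlap with anti-CD226 lower, 4.55% against 13.0% of all genes. In 7 of the 22, 31.8% against 13.8% of all genes, they did not overlap with anti-CD226 higher. These were Rfx5, Rfxap and Rfxank, the subunits of the factor that binds the X box, Creb1, which binds the X2 box, and the interferon regulatory factors Irf1, Irf2 and Irf8; Rfxap, Rfxank, Irf1, Irf2 and Irf8 are named after their values were seen. Rfx5 had 277 and 245 in isotype and 313 and 313 in anti-CD226 libraries, which gives a log2 fold change of 0.26 (SE 0.19, limma, adjusted p = 0.982). Creb1 had 926 and 845 against 969 and 1118.

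Without anti-CD226 replicate 2, 16 of the 22 regulators had a higher and 6 a lower mean. Rfxap had 463 and 462 in isotype and 480 and 481 in anti-CD226 libraries, which gives a log2 fold change of 0.05 (SE 0.17), so groups can be apart at a very small difference. With 2 libraries against 2, an exact permutation test of a single gene cannot give a two-sided p below 0.333.

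The proteasome genes that supply class I with peptides tracked 1 library. All 5 immunoproteasome genes (the catalytic subunits Psmb8, Psmb9 and Psmb10 and the activator subunits Psme1 and Psme2) had a lower mean in anti-CD226, their log2 fold changes having a median of -0.14, and 0 of 5 had an adjusted or unadjusted p below 0.05 (limma). Without anti-CD226 replicate 2, all 5 had a higher mean in anti-CD226, with a median of 0.14. Psmb8 had 7140 and 7848 in isotype and 7668 and 5086 in anti-CD226 libraries, and Psmb9 had 1195 and 1335 against 1397 and 993. Psmb10 had 821 and 858 against 926 and 629. With the length trend removed the median log2 fold change of the 5 was 0.0056.

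The length trend of anti-CD226 replicate 2, seen over 12911 genes (Spearman rho 0.54), also ran through the presentation genes. Of 30 presentation genes with a transcript under 2000 bases, counting the 10 genes and the related lists, 24 lay below the isotype mean in anti-CD226 replicate 2, with a median log2 difference of -0.26. Of 21 with a transcript over 3000 bases, 4 did, with a median of 0.26. In anti-CD226 replicate 1 the counts were 13 of 30 and 9 of 21, with medians of 0.04 and 0.02. These limits of length were chosen after the values were seen. The same counts over all genes of these lengths were not made, so the split cannot be called particular to presentation genes. Of the 10 genes, anti-CD226 replicate 2 held the highest value of 4 (Tap1, Tap2, Tapbp and Cd74) and the lowest of 4 (H2-K1, H2-D1, H2-Aa and H2-Ab1).

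**Figure D5:**
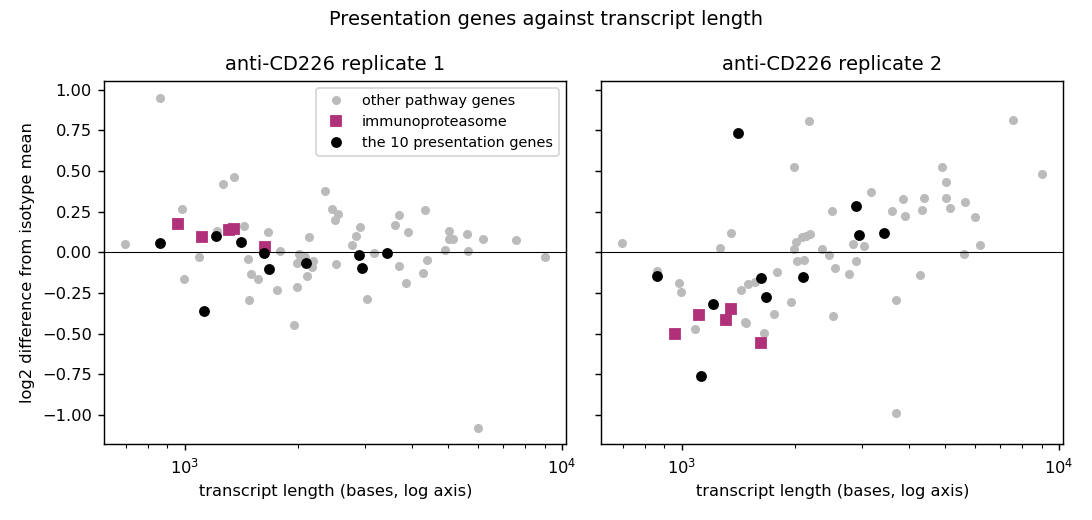
Log2 difference from the isotype mean (y axis) against transcript length in bases (x axis, log scale) for presentation genes in anti-CD226 replicate 1 (left) and replicate 2 (right); black circles are the 10 presentation genes, purple squares the immunoproteasome genes and grey circles the other class I, class II and regulator genes. In replicate 2, 24 of 30 transcripts under 2000 bases lie below 0 and 4 of 21 over 3000 bases do. The same counts over all genes of these lengths were not made.

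Other class I genes of the H2 complex and class I-like genes gave 16 tested of 29 listed; of 29, 18 were measured and 11 were not analysed here. Of the 16, 5 had a higher and 11 a lower mean in anti-CD226, 0 with an adjusted or unadjusted p below 0.05 (limma), and the median log2 fold change was -0.11. Removing each library's length trend brought that median to -0.02. In 8 of the 16, 50% against 13.0% of all genes, the groups did not overlap with anti-CD226 lower: H2-Q1, H2-Q5, H2-Q7, H2-T10, H2-T22, H2-K2, Cd1d1 and Mr1, of which H2-Q1, H2-Q5, H2-Q7, H2-K2 and Mr1 are named after their values were seen. In 1 of the 16, H2-Q2, also named after its values were seen, the groups did not overlap with anti-CD226 higher, 6.25% against 13.8% of all genes. H2-Q1, H2-Q7 and H2-T23 are among the genes that share most 50-base stretches with H2-D1. The counts above take each as its own gene, though they may not be separate observations.

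H2-T22, a ligand of gamma delta T cells, had 692 and 759 in isotype and 617 and 556 in anti-CD226 libraries, which gives a log2 fold change of -0.31 (SE 0.18, 95% interval -0.71 to 0.10, limma, adjusted p = 0.982). Cd1d1, which presents lipids to NKT cells, had 71.7 and 64.6 against 49.7 and 54.9, a log2 fold change of -0.38 (SE 0.28). H2-T23, the Qa-1 molecule that binds receptors of NK cells, had 2915 and 3144 against 2940 and 2248, and the groups overlapped. Without anti-CD226 replicate 2, 12 of the 16 had a lower mean. H2-D1, with 14.3% of its 50-base stretches shared with other genes, was lower in both anti-CD226 libraries beside them. The part of shared reads in these values was not tested.

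Genes that fold and trim for class I had log2 fold changes between -0.14 and 0.23. Of 9 tested, 6 had a higher and 3 a lower mean in anti-CD226, 0 with an adjusted or unadjusted p below 0.05 (limma), with a median log2 fold change of 0.07. Erap1, the aminopeptidase that trims peptides in the endoplasmic reticulum, had 1918 and 1840.3 in isotype and 1894 and 2328 in anti-CD226 libraries. Tapbpl, a tapasin-like peptide editor, had 309 and 340 against 422 and 328. Of these 9, 4 had a higher mean without anti-CD226 replicate 2.

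Class II loading and processing gave 7 tested genes of 16 listed, 4 with a higher and 3 with a lower mean in anti-CD226 and 0 with an adjusted or unadjusted p below 0.05 (limma). The median log2 fold change was 0.04, and -0.09 with the length trend removed. H2-DMa, a chain of the editor that exchanges class II peptides, had 176 and 177 in isotype and 193 and 125 in anti-CD226 libraries, which gives a log2 fold change of -0.19 (SE 0.26, 95% interval -0.78 to 0.41). Its partner gene H2-DMb1 was not analysed here; H2-DMb2, named after its values were seen, stayed at or below 6.18 in every library. Ctss, a protease that degrades the invariant chain, had 190 and 230 against 289 and 227, a log2 fold change of 0.29 (SE 0.22). Presenting class II peptides to T cells also takes costimulatory ligands, of which 6 of 8 were tested. Cd80, a ligand of CD28, had 18.8 and 18.5 in isotype and 2.06 and 7.72 in anti-CD226 libraries, with a log2 fold change of -1.93 (SE 0.73, 95% interval -3.61 to -0.25, limma, unadjusted p = 0.0297, adjusted p = 0.982). These values stand for 17, 24, 2 and 7 estimated reads. Its groups did not overlap with anti-CD226 lower, as in 13.0% of all genes. Cd80 was the 1 of the 6 with an unadjusted p below 0.05 (limma), against 2.37% of all genes. Its means were 18.7 in isotype and 4.89 in anti-CD226. Cd80 thus passed the filter on the mean only through the isotype group. Its fold change, p and lack of overlap are therefore partly set by the filter, and no conclusion is drawn from them. Cd274, the PD-L1 ligand, had 127 and 124 against 143 and 138, and Icosl, the ligand of ICOS, 228 and 176 against 228 and 214.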

How the data were processed

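RNA of 4 libraries, 2 per group, was made into cDNA from 10 pg per sample (a unit that may be misstated) with a low-input SMARTer kit, per the labels' protocols. The submitters' processing notes name build mm10, the aligner STAR 2.7.8, Partek 10.0 and DESeq2 without a version; for annotation and strand handling, the sources used here give nothing. The authors deposited 1 normalised signal per gene and library. Between 73.5% and 75.1% of low values (up to 1000 steps) were whole multiples of a library's step, within 0.02 of a step, so the values were taken as estimated reads divided by 1 factor, and depth as the total divided by the step. Because many values were fractional, no count model was used. Of the gene columns, 128 were checked singly and the rest taken to hold the same unit.

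Genes with a mean of 10 or more (13010) were tested with limma 3.58.1 in R 4.3.3, with a trend, on log2(value + 1), which understates the change of low genes; the steps were tested on simulated data. The 10 genes and all lists were chosen with earlier results of these data known. Named are all 10, 8 preset partners and regulators, and up to 4 genes of smallest p per list; genes outside this rule are marked, other than Ccr2, left out of a marker sum. Lengths and positions come from GENCODE M21 (98.8% of genes matched). Alternatives covered the pseudocount, the filter, 3 scalings, the trend, a replicate block, transcript length and leaving out each library; crossed pairs and list counts without anti-CD226 replicate 2 were added after seeing the data. Reads of amplified cDNA are copies, so counting error alone is too small for genes with few reads.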

Additional observations from a re-analysis of the deposited data

How the results depend on the processing

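Of the 10 genes, 0 had an adjusted p below 0.05 in the main analysis and under every alternative, the replicate block and crossed pairs included; a minimum mean of 50 leaves 8 of the 10. Over all genes, 0 were called in the main analysis, 20 with the replicate block, 61 with crossed pairs (added after seeing the data) and 12 to 1633 when 1 library was left out, the most without anti-CD226 replicate 1, where the other group's spread stands for the lone library's. Same-numbered libraries deviated with a correlation of -0.24, so the numbers were not taken to pair them. The sign of Tap1 turned with equal totals (-0.00080), upper quartile scaling (-0.017) and quantile normalisation (-0.023). With the length trend removed, the sign turned for H2-K1 (0.012), B2m (0.14), Tap1 (-0.019) and H2-Ab1 (0.030). When 1 library was left out, log2 fold changes ran from -0.23 to 0.15 for B2m, -0.093 to 0.11 for Tap1, -0.0027 to 0.12 for Tap2, -0.014 to 0.28 for Tapbp, -0.32 to 0.10 for H2-Ab1 and -0.69 to 0.31 for H2-Eb1, each with a change of sign. H2-D1, H2-Aa and Cd74 kept their sign in every alternative that tested them, with H2-Aa between -0.95 and -0.17 when 1 library was left out. H2-Aa and H2-Eb1 give no value under that minimum. The cause of these turns was not tested. With 9 to 33 estimated reads per library, depth limits H2-Aa and H2-Eb1 most.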
